A study of Mus musculus with 6 samples.

Results

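DNA replication and mitosis genes were followed in colon RNA of Setd2 KO and control mice, together with Spdl1, a kinetochore gene. The set lists 45 genes, 16 for DNA replication and 29 for mitosis, of which 43 are among the 19057 genes named on the array. Spdl1 and Depdc1a were chosen by their log2 differences on these same arrays, lower in KO colon, so their values are descriptions that carry no test. The other members are textbook genes of the cell cycle. Each gene is represented by the probe with the highest mean log2 intensity over all arrays. No probe was named for Ccnb1 or Mki67 in the annotation used, which left 43 measured members, 16 for replication and 27 for mitosis.

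RNA of 3 Setd2 KO and 3 control colon samples was hybridised to Illumina bead arrays, a single array per sample. Mice of both groups had the C57BL/6 background and were 6 weeks old. The labels do not state how Setd2 was deleted or in which cells, what control mice carried, or whether each sample came from a separate animal, so errors measure the spread between these samples. Values are the authors' normalized intensities on a linear scale with a floor of 1, written here as log2, so that the floor is 0. Values at the floor cannot be ranked among themselves, and a difference from the floor is not a fold change. Setd2 itself measured 201, 119 and 146 units on the KO arrays and 374, 600 and 329 units on the control arrays on its brightest probe, a log2 difference of -1.47 (SE 0.44, limma adjusted p = 0.786) without overlap.

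A dividing crypt cell first loads the MCM helicase onto replication origins, then copies its DNA with the sliding clamp PCNA and freshly made deoxynucleotides, and then condenses and separates its chromosomes on the spindle. E2F factors switch on the replication genes, and the DREAM and MuvB complexes act on the mitotic genes through a promoter element called the CHR. In the colon the stem and transit-amplifying cells at the crypt base divide, and the cells above them do not. Lymphocytes of the mucosa can divide too. In whole tissue, fewer cells of a dividing type and less RNA per cell cannot be told apart.

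RefSeq promoters (GRCm38.p6, 250 bases before to 50 after each start) were found for 37 of the 45 members, in 40 windows. Windows of 200 bases, from 150 before to 50 after the start, are printed for Spdl1 and Depdc1a, the genes the set was built around, and for the 2 brightest members of each class that have a single window, so that the letters of each class can be read side by side. Capitals mark 3 kinds of letters, each on either strand. The E2F letters are TTCCCGC and the related words TTGGCGC, also with its middle changed as TTCGCGC, and lastly the word TTGCCGC. The CHR letters are TTTGAA and also the word TTTAAA. The third kind is the CCAAT box. No word of these sets is part of a word of another.
Spdl1, chr11:34833592-34833791, minus strand: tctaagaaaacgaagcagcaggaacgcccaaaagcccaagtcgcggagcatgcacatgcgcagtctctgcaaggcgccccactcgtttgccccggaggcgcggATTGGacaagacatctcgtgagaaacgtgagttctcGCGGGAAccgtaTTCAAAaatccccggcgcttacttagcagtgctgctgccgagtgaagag
Depdc1a, chr3:159495283-159495482, plus strand: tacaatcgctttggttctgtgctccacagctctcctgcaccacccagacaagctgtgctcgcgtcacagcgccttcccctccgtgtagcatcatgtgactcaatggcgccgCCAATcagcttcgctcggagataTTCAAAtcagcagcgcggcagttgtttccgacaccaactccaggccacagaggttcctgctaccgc
Mcm5, chr8:75109359-75109558, plus strand: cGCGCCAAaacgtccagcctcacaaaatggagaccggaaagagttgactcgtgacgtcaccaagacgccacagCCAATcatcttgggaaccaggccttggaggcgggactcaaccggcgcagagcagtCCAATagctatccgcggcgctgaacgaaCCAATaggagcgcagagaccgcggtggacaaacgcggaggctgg
Cdt1, chr8:122567865-122568064, plus strand: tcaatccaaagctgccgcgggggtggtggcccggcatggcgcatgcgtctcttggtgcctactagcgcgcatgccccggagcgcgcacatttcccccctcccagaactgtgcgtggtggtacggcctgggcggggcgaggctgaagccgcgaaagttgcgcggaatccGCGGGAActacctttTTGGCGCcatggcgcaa
Cenpa, chr5:30666736-30666935, plus strand: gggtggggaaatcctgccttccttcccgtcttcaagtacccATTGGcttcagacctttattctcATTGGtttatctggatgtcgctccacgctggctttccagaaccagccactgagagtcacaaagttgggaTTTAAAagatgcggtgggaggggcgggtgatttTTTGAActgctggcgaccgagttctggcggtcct
Cdc20, chr4:118437294-118437493, minus strand: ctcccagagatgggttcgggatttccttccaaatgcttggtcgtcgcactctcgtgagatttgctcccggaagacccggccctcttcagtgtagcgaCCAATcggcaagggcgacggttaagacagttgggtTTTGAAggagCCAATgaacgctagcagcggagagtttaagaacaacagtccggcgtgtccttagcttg

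Spdl1 carried all 3 kinds of letters in this window, the E2F letters 11 bases before the start and the CHR letters just after it. Depdc1a carried CHR letters 16 bases before the start and a CCAAT box 39 bases before it, with no E2F letters. Over the full windows, E2F letters stood in 11 of 15 replication promoters (73.3%) and 4 of 25 mitotic promoters (16%), beside 9.57% of all 32851 promoters of this length. CHR letters showed the opposite split, with 5 of 15 replication promoters (33.3%) and 22 of 25 mitotic promoters (88.0%), beside 27.6% of all. By gene, 21 of 24 mitotic genes had CHR letters, and in 19 of them a copy began within 60 bases of the start. The mitotic genes without them were Bub1, Mybl2 and Nusap1. A CCAAT box stood in 11 of 15 replication and 21 of 25 mitotic promoters, beside 37.4% of all. These are matches of letters, not mapped sites.

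Spdl1, also called Spindly, brings dynein and dynactin to kinetochores that have not yet captured microtubules. Its probe measured 15.9, 7.97 and 10.6 intensity units on the KO arrays, against 46.0, 80.5 and 64.4 units on the control arrays. On the log2 scale this was 3.46 ± 0.50 in KO and 5.95 ± 0.41 in control (SD, n = 3 each), a difference of -2.49. The 3 KO arrays lay below the 3 control arrays with no overlap, which the choice of the gene by its difference made likely. Only 1 probe was named for Spdl1, so no second measurement on these arrays bears on it. Depdc1a, whose protein is known in human cells as a partner of a transcriptional repressor, was listed at the floor on the 3 KO arrays and measured 7.69, 7.68 and 8.996 units on the control arrays. Its control mean of 3.02 on the log2 scale was above the floor but below the medians of all features tested, which were 4.54, 4.75 and 4.50 on the control arrays. Its 4 dimmer probes were at the floor on 3 to 5 arrays each and had means of 0.34 to 0.48, and 1 of them had the higher mean in KO.

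Control 2 stood apart from the other arrays, with 41.6% of its probes at the floor, against 33.5% to 36.9% on the other 5. Over the 18918 features fitted in limma, the smallest adjusted p for KO against control was 0.400, so 0 (0%) passed 0.05. The unadjusted p was under 0.05 for 814 of them, or 4.3%. Among the 38 members tested other than Spdl1 and Depdc1a the count at an unadjusted p under 0.05 was 0. The 95% limma intervals of all 38 differences contained 0, with standard errors from 0.361 to 1.96. Even for Mcm4, which had the smallest of these standard errors, the interval ran from -1.01 to 0.72, so changes of those sizes were not excluded.

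The median differences of both classes lay between the quartiles of all features tested, -0.51 and 0.44. Of 43 measured members 23 were higher in KO (44.6% of all features were) and 20 were lower (55.4% of all features were), with a median difference of 0.06, beside -0.09 over all features tested. Replication genes had a median difference of -0.11, with 7 of 16 higher and 9 lower. Mitotic genes had a median of 0.11, with 16 of 27 higher and 11 lower. These counts include Spdl1 and Depdc1a, which were chosen as lower in KO. Among the other 41 members 23 were higher and 18 lower, with a median of 0.09. Among the other 25 mitotic genes 16 were higher and 9 lower, with a median of 0.12 (0.34 without control 2 and 0.30 without KO 1). For 24 members the difference was smaller than 0.5 in size (55.8%, beside 51.3% of all features). Among the 20 members with a mean above 6, 13 were higher and 7 lower, with a median of 0.12. Of all 6818 features that bright 3012 were higher and 3806 lower, with a median of -0.06. Without KO 1, 16 of these 20 members were higher, and without control 2, 14 were. Among the 41 members other than Spdl1 and Depdc1a, groups did not overlap for 3 higher in KO (3.38% of all features) and 0 lower (5.31% of all features). The 3 were Ccne2, Aurkb and Ube2c. Spdl1 and Depdc1a were lower without overlap but were chosen by that difference, so they were left out of this count. Spdl1 and Depdc1a had the most negative differences of the set, and the next were Ccnb2 and Ttk, each at the floor on 2 KO arrays, and for Ttk the second probe went the other way.

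**Figure D1:**
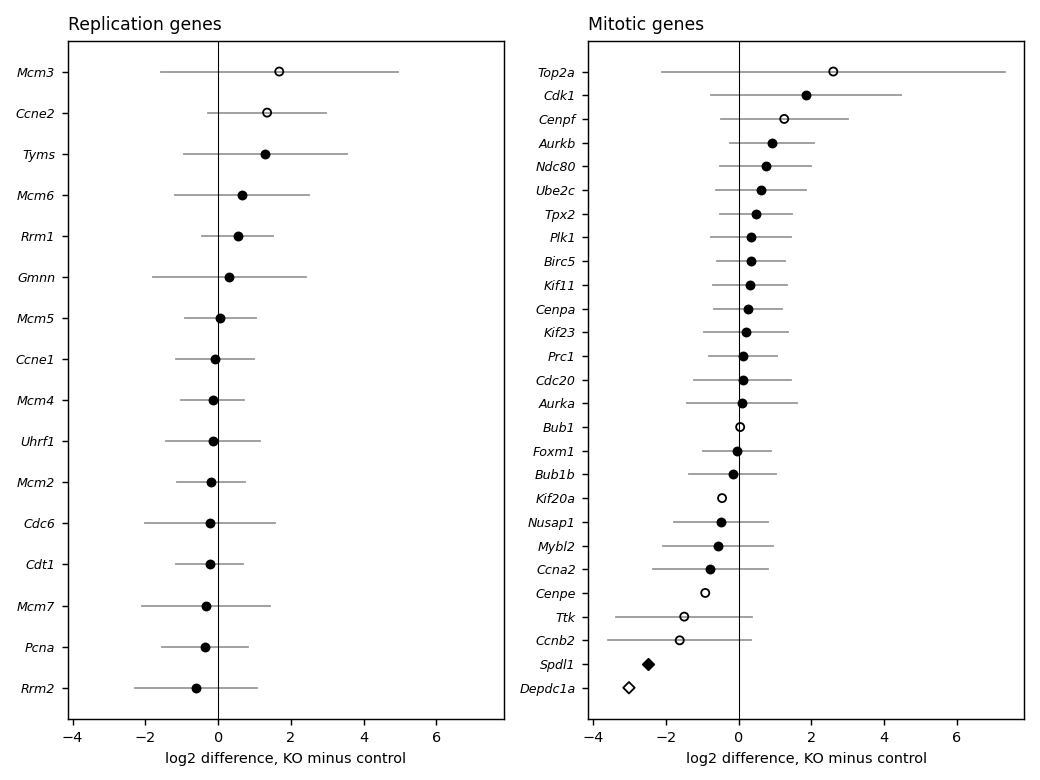
Log2 difference, KO minus control, for each measured replication gene (left) and mitotic gene (right), with limma 95% intervals as grey lines. Open symbols mark genes with at least 1 array at the floor, and diamonds mark Spdl1 and Depdc1a, which were chosen for their difference and have no interval drawn. Bub1, Kif20a and Cenpe were below the brightness filter and were not fitted. Every interval drawn crosses 0.

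The mean of the tested features had to exceed 0.96 on the log2 scale, which 40 of 43 measured members did, 16 for replication and 24 for mitosis. Ccnb2, with a mean of 1.01, lay just inside this limit, and Bub1, with a mean of 0.65, was the nearest outside it. Cenpe and Kif20a also fell below, at 0.46 and 0.23. Depdc1a passed through its control arrays alone, since all its KO values were at the floor. All 43 measured members, with or without the filter, enter the counts and medians above.

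The MCM2-7 helicase unwinds DNA at the fork ahead of the polymerases. Among its subunits Mcm4 and Mcm5 measured as follows. Mcm4 measured 9.34, 9.60 and 9.42 in KO and 9.43, 9.74 and 9.62 in control, a difference of -0.14. Mcm5 measured 8.89, 9.50 and 9.74 in KO and 9.31, 9.22 and 9.41 in control, a difference of 0.06. For both genes the ranges overlapped and the difference was smaller than its standard error (0.36 for Mcm4, 0.40 for Mcm5). Mcm2 differed by -0.20 (-0.33 without control 2). Mcm7 differed by -0.33, which turned to 0.33 without control 2 and to 0.25 for the mean of its probes. Mcm3 and Mcm6 differed by 1.68 and 0.66, and in each case control 2 set the difference. Mcm3 measured 4.85, 5.14 and 5.05 in KO and 4.94 and 5.06 on control 1 and control 3, with control 2 at the floor. Without control 2, Mcm3 differed by 0.01 and Mcm6 by -0.17.

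Licensing of origins is carried out by Cdc6 and Cdt1 and held back by geminin, the product of Gmnn. Cdt1 measured 7.71 ± 0.34 in KO and 7.94 ± 0.14 in control (SD, n = 3 each). Cdc6 differed by -0.24, with KO 1 at 2.32 against 4.85 and 4.65 on KO 2 and KO 3. Gmnn was dim, with means of 2.52 in KO and 2.22 in control. For these 3 genes the groups overlapped.

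Thymidylate synthase (Tyms) and ribonucleotide reductase (Rrm1 and Rrm2) make the deoxynucleotides, and Uhrf1 guides the copying of DNA methylation behind the fork. Tyms measured 7.57, 8.18 and 7.83 in KO and 7.73, 4.40 and 7.57 in control, a difference of 1.29 that was 0.21 without control 2. Rrm2 measured 4.23, 5.99 and 6.07 in KO and 5.49, 7.02 and 5.62 in control, a difference of -0.61 that was -0.12 without control 2. Thus control 2 was the lowest array for Tyms and the highest for Rrm2. Uhrf1 measured 7.94, 9.21 and 9.47 in KO and 8.66, 8.96 and 9.44 in control, a difference of -0.15, and was lowest on KO 1. Rrm1 differed by 0.54 (0.35 without control 2) and Pcna by -0.36 (-0.07 without control 2), with overlap for both.

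Cyclin E drives cells into S phase. Ccne1 differed by -0.08. Ccne2 measured 2.74, 3.19 and 2.05 in KO and 2.04 and 1.91 on control 1 and control 3, with control 2 at the floor. Its groups did not overlap, but KO 3 and control 1 measured nearly the same, at 2.05 and 2.04. Without control 2 it differed by 0.69.

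Foxm1 and Mybl2 (B-Myb) encode the transcription factors that switch on mitotic genes. Foxm1 measured 6.01 ± 0.29 in KO and 6.06 ± 0.20 in control (SD, n = 3 each), and its second probe differed by 0.01. Mybl2 differed by -0.58, with its highest value, 7.31, on control 2, and by -0.04 without that array, and the mean of its probes differed by 0.11. Cdk1, the kinase that starts mitosis, measured 7.20, 8.36 and 7.65 in KO and 6.87, 3.36 and 7.42 in control, a difference of 1.85 that was 0.59 without control 2. Its second probe differed by -2.16, and the mean of both by -0.15. Cyclin A2 (Ccna2) went the other way, at 4.50 ± 0.78 in KO and 5.29 ± 0.95 in control, with control 2 the highest array and a difference of -0.24 without it. Cyclin B2 (Ccnb2) was at the floor on KO 1, KO 3 and control 2 and measured 0.59 on KO 2, 3.01 on control 1 and 2.44 on control 3.

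Of the mitotic kinases, Plk1 differed by 0.34 (0.62 without control 2) and Aurka by 0.09 (0.52 without control 2), with overlap for both. Aurkb, the kinase of the chromosomal passenger complex, measured 5.99, 6.49 and 6.06 in KO and 5.71, 4.50 and 5.59 in control. Its difference of 0.91 had a standard error of 0.48, and it was 0.53 without control 2. Birc5 (survivin), a subunit of the same complex, measured 9.15 ± 0.29 in KO and 8.81 ± 0.22 in control (SD, n = 3 each). The checkpoint kinase genes gave opposite signs with different probes. Bub1b differed by -0.17 with its brightest probe and by 0.74 with the second. The brightest Ttk probe was at the floor on KO 1 and KO 3 and differed by -1.50. The second, nearly as dim, measured 2.27, 2.65 and 2.01 in KO and 1.01 on control 1, with control 2 and control 3 at the floor. The mean of their probes was higher in KO for both, by 0.28 for Bub1b and 0.24 for Ttk. Bub1 was at the floor on 4 arrays.

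Cdc20, the activator of the anaphase-promoting complex, measured 9.29, 9.52 and 10.21 in KO and 8.87, 10.47 and 9.34 in control with its brightest probe, a difference of 0.11 that was 0.57 without control 2. Its second probe measured 8.48, 8.63 and 8.60 in KO and 7.73, 7.76 and 7.99 in control, a difference of 0.74. The other 2 Cdc20 probes differed by 0.78 and 2.13. All 3 dimmer probes were higher on every KO array than on any control array, and the mean of the 4 probes differed by 0.94. Ube2c, its ubiquitin-conjugating enzyme, measured 4.78, 4.73 and 4.63 in KO and 3.15, 4.56 and 4.58 in control. KO 3 and control 3 were nearly equal, control 1 was the lowest array, and the difference was 0.61. At the centromere, the histone variant gene Cenpa was the brightest member of the set, at 10.21, 10.65 and 10.72 in KO and 10.03, 10.46 and 10.33 in control, a difference of 0.25. Ndc80, part of the complex that binds microtubules at the kinetochore, differed by 0.74 with overlap (0.47 without control 2). Cenpf, a large kinetochore protein, was at the floor on control 2 and differed by 1.25 (0.51 without that array, and 0.03 for the mean of its probes). Cenpe, a kinetochore motor, was at the floor on 5 arrays.

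Prc1, which bundles the microtubules of the spindle midzone, measured 9.21, 9.77 and 9.68 in KO and 9.22, 9.40 and 9.67 in control, a difference of 0.12. Kif11, Kif23 and Tpx2 differed by 0.31, 0.20 and 0.48, or by 0.58, 0.34 and 0.49 without control 2. Nusap1 measured 8.68 on control 2 and 7.04 to 7.31 on the other arrays, and its difference of -0.48 was 0.03 without control 2. Top2a, the topoisomerase that untangles chromosomes, measured 7.27, 7.91 and 7.32 in KO and 7.29 and 7.41 on control 1 and control 3. Control 2 was at the floor. This single value made the difference of 2.60, the highest of the set, and without it Top2a differed by 0.15.

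**Figure D2:**
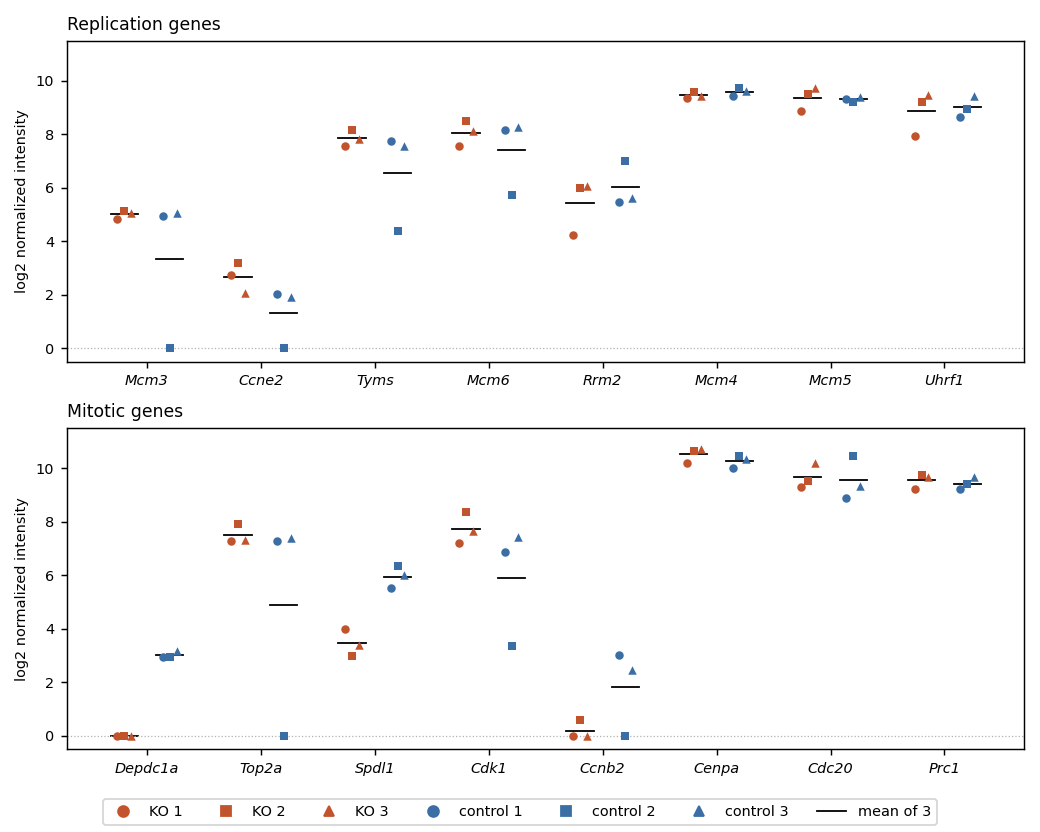
Log2 normalized intensity on each array for the 5 replication and 5 mitotic genes with the largest differences and the 3 brightest of each class, KO in orange to the left of control in blue, with a black line at the mean of 3 arrays. The dotted line is the floor. Spdl1 and Depdc1a, chosen by their difference, separate the groups, and so does Ccne2, narrowly. For Mcm3, Mcm6, Tyms, Ccne2, Cdk1, Ccnb2 and Top2a the control mean is pulled down by control 2.

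Control 2 was the lowest array for 11 and the highest for 11 of 43 members. Over all features tested it was the lowest for 23.1% and the highest for 42.2%. On this array different probes of the same gene disagreed. The brightest Mcm7 probe measured 7.29 there, its highest value, and the second 2.90, its lowest. Mcm6 measured 5.74, 7.76 and 3.84 on control 2 with its 3 bright probes, against 8.17, 6.77 and 7.69 on control 1. Birc5 measured 8.86, 4.74 and the floor on control 2 with its 3 probes, against 8.57, 7.41 and 7.64 on control 1. All 3 Top2a probes were at the floor there, although the brightest measured 7.27 or more on each other array.

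For the 9 members with at least 2 probes of mean above 5, a limit set after the values were seen, the offset between the 2 brightest probes was compared with its own median over the arrays. It departed from that median by 1.44 (median over genes) on control 2 and by 0.11 to 0.24 on the other arrays. In 8 of 9 members (88.9%) it departed most on control 2, beside 67.1% of all 1841 genes with such probes. Over all 1841 such genes the same medians were 0.95 on control 2 and 0.12 to 0.17 elsewhere, so the disagreement was shared by genes in general. Without control 2 the difference of the brightest probe turned its sign for 5 of 43 members (Mcm6, Mcm7, Foxm1, Bub1 and Nusap1), shrank by over 1.5 times for 17, grew by over 1.5 times for 9 and stayed within that limit for 12. Spdl1 and Depdc1a were among the 12.

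Dimmer probes gave further measurements of 16 members, with 27 probes above the filter. Of these, 10 probes of 6 genes (Rrm1, Ttk, Cdc20, Birc5, Kif23 and Top2a) were higher in KO without overlap and 0 were lower. Among all 8250 dimmer probes of named genes 5.5% were higher without overlap and 4.29% lower. Probes of a gene share their RNA, so the 10 are not independent, and control 2 was at the floor for 5 of them. The second Kif23 probe measured 7.59, 7.45 and 7.82 in KO and 6.68, 6.74 and 7.38 in control, while the brightest and the third overlapped. With the mean of a gene's probes above the filter, the sign turned for 5 of 40 members, Mcm7, Mybl2, Cdk1, Bub1b and Ttk.

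**Figure D3:**
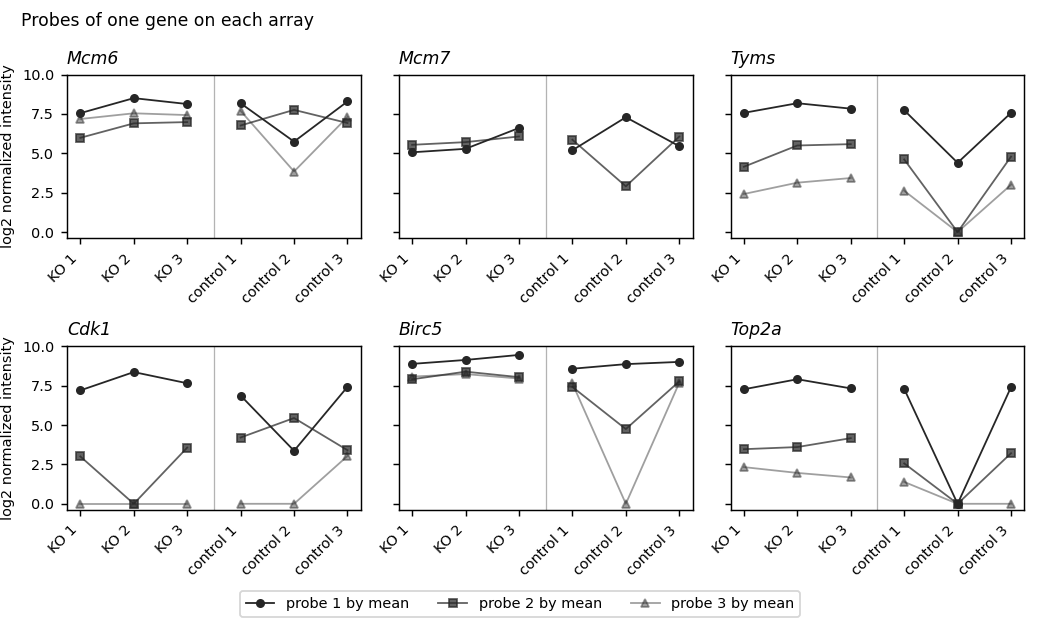
Log2 normalized intensity of up to 3 probes of each of 6 members on the 3 KO arrays (left of the grey line) and the 3 control arrays. On control 2 the 2 brightest probes of Mcm6, Mcm7 and Cdk1 move in opposite directions, Birc5 keeps its brightest probe while the other 2 drop, and all probes drawn for Tyms and Top2a drop.

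Within KO, the replication genes were lowest on KO 1. KO 1 was the lowest of all 6 arrays for 9 of 16 replication genes (56.2%) and for 4 of 27 mitotic genes, beside 13.2% of all features. The median level of the replication genes was 6.18, 6.67 and 7.19 on the KO arrays and 6.41, 6.46 and 6.60 on the control arrays. The 3 control medians lay inside the range of the KO medians. For mitotic genes the medians were 5.30, 5.51 and 6.06 in KO and 5.52, 5.61 and 5.86 in control. KO 1 was again the lowest and KO 3 the highest of the 6. Among the 20 members with a mean above 6, KO 1 and control 1 were the lowest arrays of their groups, at 7.73 and 7.99. KO 2 and KO 3 measured 8.34 and 8.33, and control 2 and control 3 measured 8.47 and 8.15.

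**Figure D4:**
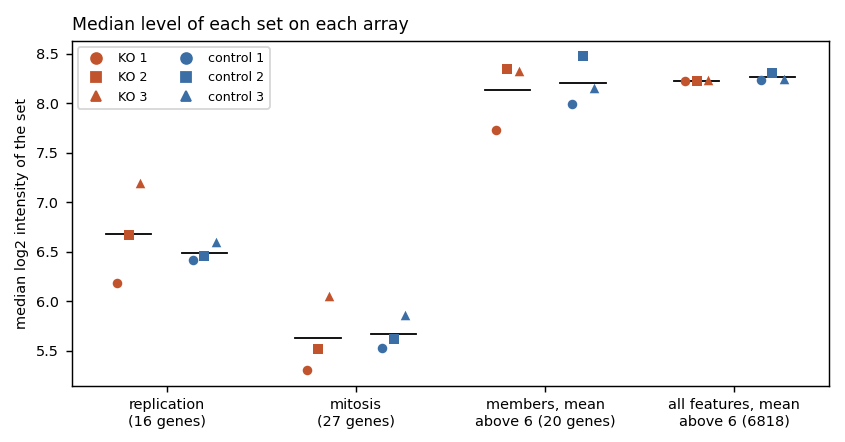
Median log2 intensity of the replication genes, the mitotic genes, the members with a mean above 6 and all features with a mean above 6, on each array, KO to the left of control, with a black line at the mean of 3 medians. KO 1 is the lowest array in each of the member sets, while the medians of all bright features lie between 8.22 and 8.30.

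Without KO 1 the median difference of replication genes was 0.32 in place of -0.11. It ranged from -0.14 to 0.32 over the fits that left out 1 array each, and among them only the fit without KO 1 gave a positive median. It was -0.07 without control 2 and -0.03 without control 3. For mitotic genes the range was -0.13 to 0.30. The median was -0.13 without KO 3 and -0.01 without control 1, below 0 in both cases, and it was 0.30 without KO 1, 0.19 without KO 2 and 0.22 without control 3. The sign of neither class median was therefore held by all arrays.

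Marker levels of other cells were set beside these array patterns, as sums of linear intensities. Small intestinal enterocyte markers (8 of 8 measured) summed to 8766, 266 and 386 units on the KO arrays and to 90.5 to 700 units in control, with Fabp2 at the floor on all arrays. Smooth muscle markers (9 of 9 measured) were lowest within each group on the arrays where bright members were lowest, at 29009 on KO 1 (KO 2 and KO 3 had 38346 and 43566) and at 22698 on control 1 (control 2 and control 3 had 38120 and 33782). By gene, 8 of them were higher in KO and 1 lower, with a median difference of 0.20 (0.55 without KO 1, 0.65 without control 2). For 3 of them, higher in KO, the groups did not overlap (3.38% of all features). Fibroblast markers (7 of 7 measured) were also lowest on these arrays, at 1775 on KO 1 and 1613 on control 1. Of these 3 were higher in KO and 4 lower. Pancreatic enzymes (8 of 9 measured) were highest within each group on the same arrays, at 20383 on KO 1 and 61344 on control 1. Their part in the levels of the replication and mitotic genes was not tested.

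T and NK cell markers (10 of 12 measured) were lower in KO for 9 genes, and their sum was 256 to 298 units in KO, against 476 to 704 in control. This sum separated the groups in the same direction as Spdl1, and its part in the Spdl1 difference was not tested. Germinal centre B cell markers (6 of 7 measured) summed to 274 to 312 in KO and 287 to 673 in control, with Gcsam at the floor on 5 arrays. B cell markers (7 of 9 measured) had Ms4a1 and Pax5 at the floor on all arrays, and 1 was higher in KO and 4 lower. They summed to 142, 76.6 and 19.1 in KO and to 875, 86.4 and 20.9 in control. The part of these B cells in the member levels was not tested. Epithelial markers (9 of 9 measured) summed to 23590 to 28644 in KO and 22418 to 29100 in control, and crypt stem cell markers (10 of 11 measured) to 1959 to 2658 in KO and 1897 to 2706 in control. For both of these the ranges of the sums overlapped almost wholly. By gene, 5 epithelial markers were higher in KO and 4 lower, with a median difference of 0.08. Of the crypt stem cell markers 7 were higher and 3 lower, with a median difference of 0.43 (0.21 without control 2). Markers of differentiated colonocytes (9 of 9 measured), which no longer divide, were higher in KO for 8 genes, with a median difference of 0.48 and sums of 39720 to 49026 in KO and 21647 to 42912 in control. Their part in the levels of the dividing-cell genes was not tested.

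**Figure D5:**
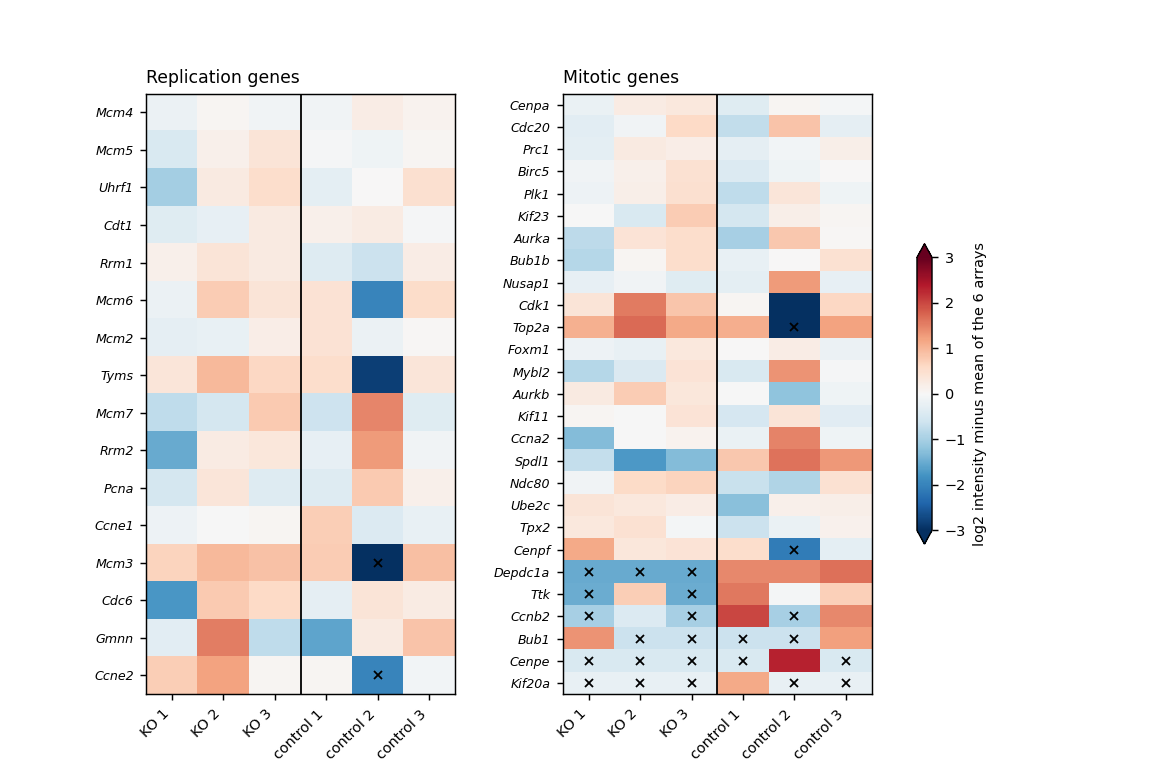
Log2 intensity of each measured member on each array minus its mean over the 6 arrays, genes ordered by mean level from top to bottom, KO arrays left of the black line. Crosses mark values at the floor, and colours saturate at 3. Red is above and blue below the gene's mean. Control 2 holds both deep blue and deep red cells, and most replication genes are blue on KO 1.

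Other genes of the same processes were followed in 5 lists, and 0 genes passed the adjusted threshold in any list. Of 46 measured further replication genes, such as the origin recognition complex, the GINS complex and the DNA polymerases, 11 were higher and 35 lower in KO (55.4% of all features were lower), with a median difference of -0.29. KO 1 was the lowest array for 21 of these 46 genes, and without it the median was -0.13, with 30 lower. Without control 2 the median was -0.12, with 33 lower. At an unadjusted p under 0.05 there was 1 gene, lower in KO (2.64% of all features were). This was Hells, a chromatin remodeller, at the floor on KO 1 and KO 3, 2.21 on KO 2 and 2.33 to 2.74 in control. Its KO mean lay below the brightness filter, which it passed through its control arrays, so this count is not support for a change. Rfc4, a subunit of the clamp loader, differed by -1.31 and Timeless, a fork protection factor, by -0.70, both with overlap.

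Spdl1 reaches the kinetochore through the ROD-Zwilch-ZW10 complex. Zw10 measured 6.66, 6.80 and 6.35 in KO and 6.66, 4.70 and 6.53 in control, a difference of 0.64 (SE 0.61) that was 0.01 without control 2. Kntc1, which encodes ROD, measured 4.30, 6.15 and 5.60 in KO and 5.50, 5.94 and 6.00 in control, a difference of -0.46 (SE 0.57). Zwilch was dim, with a difference of 2.02 and 2 control arrays at the floor. None of the 3 separated the groups. Dctn1, the large dynactin subunit, differed by 1.18, and Ska2, which helps kinetochores hold microtubules, by -0.94, without overlap for Ska2 alone of these. Over the 47 measured kinetochore, dynein and dynactin genes of this list, 25 were higher and 22 lower, with a median of 0.08 and 0 at an unadjusted p under 0.05.

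Of 57 further spindle, cohesion and cytokinesis genes, 28 were higher and 29 lower, with a median of -0.07 that turned to 0.07 without KO 1 and 0.08 without control 2. At an unadjusted p under 0.05, 2 were higher (1.66% of all features were) and 1 was lower. Ckap2l, a spindle protein, measured 2.28, 3.38 and 2.97 in KO and 1.09 on control 3, with the other 2 control arrays at the floor. Its control mean lay below the brightness filter, which it passed through its KO arrays, so its count above is not support for a change. The condensin subunit Smc4 differed by 1.72, and the kinesin Kif18a by -1.75, both with an adjusted p of 0.940 in limma. Among 28 genes of G1 entry, Rb-E2F and DREAM, 11 were higher and 17 lower, with a median of -0.27, which was -0.02 without control 2. Myc was listed at the floor on the 3 control arrays and measured 2.80, 3.15 and 1.89 in KO, all dim values. It passed the brightness filter through its KO arrays alone, so no test is given for it. E2f1 and Lin37 differed by -0.96 and -0.77, with overlap. Of 14 measured cell cycle inhibitors 6 were higher and 8 lower, with a median of -0.05 (-0.02 without KO 1). Cdkn2c, which blocks Cdk4 and Cdk6, measured 5.58, 5.57 and 5.22 in KO and 6.33, 6.01 and 6.06 in control, without overlap, a difference of -0.68 (limma adjusted p = 0.940). Ccng1, a p53 target, measured 9.04, 9.52 and 9.06 in KO and 8.67, 8.39 and 8.74 in control, also without overlap. Its difference was 0.60 (limma adjusted p = 0.940). Cdkn2a differed by -1.39 with overlap.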

How the data were processed

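Per the labels' protocols, total RNA was purified with Trizol and RNeasy columns, treated with DNase I and amplified into biotinylated cRNA for Illumina arrays. The deposited table holds linear intensities of 45281 probes for each of 6 arrays, which share their median (3.82) and maximum (16715). Its software and background correction are not stated in any source used. A second table, with 12 columns of values, was not used because its column names match no sample. Probes were named through the platform annotation. From the deposited intensities log2 values were taken with no offset or further normalization. Probes with a mean above the 40th percentile (0.96) were kept (27168), with 1 probe per gene and unnamed probes as features of their own (18918 features). The KO arrays were set against the control arrays with lmFit and eBayes of limma 3.58.1 under R 4.3.3 (2-sided, Benjamini-Hochberg over all features). The fit was checked on simulated data. Differences are KO minus control, and the number of arrays limits the precision. Replicate numbers were not used as a block. The members and gene lists were chosen with earlier results of these data known. Values on every array are given for Spdl1, Depdc1a and, in each class, the 5 members with the largest difference and the 3 brightest; further members are named with values where they carry a role or a pattern. From each pathway list the 3 genes of smallest p are named, with Zw10 and Kntc1 as partners of Spdl1. Alternatives were other filters, the mean of all probes, an offset of 16, further normalization, other eBayes options, array weights, a replicate block and leaving out each array.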

Additional observations from a re-analysis of the deposited data

How the results depend on the processing

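With 16 alternatives, 15 left 0 features past the adjusted threshold. Without a filter on dim probes there were 11 (9 higher, 2 lower in KO), in 10 of which 1 group lay wholly at the floor. Of the 11, 0 had a mean below the main filter, so they were not probes that this filter had removed. At an unadjusted p under 0.05 the count ran from 307 (filter at the 60th percentile) to 1315 (without control 3), beside 814; with an offset of 16 it was 449 and over probes above the floor on all arrays 386. Causes were not tested. The median of replication genes was 0.32 without KO 1, in place of -0.11. Leaving out each array in turn gave -0.14 to 0.32 for replication and -0.13 to 0.30 for mitotic genes, with 0 calls each time. Over the other alternatives the medians ran from -0.15 to 0.0005 and from 0.11 to 0.34. Of 43 measured members 24 kept their sign under all alternatives that gave them a value, 15 higher and 9 lower in KO. Spdl1 differed by -2.76 to -1.52. Depdc1a differed by -3.06 to -0.50, the smallest with the offset. The replicate block left 0 calls and 840 features at an unadjusted p under 0.05. Deviations of same-numbered KO and control arrays from their group means correlated at 0.16, -0.09 and 0.04. The value of 0.16, for KO 1 and control 1, was the highest of any KO and control array. With 3 arrays per group, these correlations cannot show whether the samples were paired. The main fit did not pair them. With a window of 150 bases before the start, E2F letters, CHR letters and a CCAAT box stood in 32.5%, 62.5% and 77.5% of member promoters, beside 37.5%, 67.5% and 80.0% in the full window. The unnormalized table could not be run as an alternative, since no column could be given a sample. Dim members have the least signal over background and are the least certain.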
